A study of Mus musculus with 4 samples.

Results

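The genes described here encode the core of the splicing machinery and its best known regulators: the SR proteins (symbols beginning Srsf), the heterogeneous nuclear ribonucleoproteins (hnRNPs, Hnrnp), the proteins of the small nuclear ribonucleoproteins (snRNPs, Snrp), the splicing factor 3a and 3b complexes (Sf3a, Sf3b) and the pre-mRNA processing factors (Prpf). Members were taken by these symbol prefixes from the mouse gene names matched to the Ensembl identifiers, leaving out symbols marked -ps. Of 66 such symbols 65 were matched to an identifier among the 39179 in the files, and Snrpn was not analysed here. They comprise 11 Srsf, 20 Hnrnp, 12 Snrp, 9 Sf3a or Sf3b and 13 Prpf genes. Among the Snrp genes, Snrpert is annotated as a pseudogene.

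The spliceosome removes introns from pre-mRNA. U1 and U2 snRNPs mark the 5′ splice site and the branch point, the tri-snRNP of U4, U5 and U6 then joins, and helicases and Prp19-associated proteins rearrange the assembly into its catalytic form. SR proteins mostly bind exons and favour their inclusion, hnRNPs often oppose them, and in T cells hnRNPLL (Hnrnpll) is known for directing the exon skipping that gives activated and memory cells the short form of CD45.

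The cells were OT-II T cells, whose transgenic receptor recognises ovalbumin. They had been transferred into C57BL/6 hosts, which were then immunised subcutaneously with ovalbumin carrying nitrophenol. On day 8 the transferred Thy-1.1+ CD44hi cells of pooled inguinal lymph nodes were sorted into T follicular helper (Tfh) cells, gated as CXCR5+ PD-1+, and non-Tfh cells, gated as CXCR5- PD-1-, so both groups were antigen-experienced cells of the same receptor, host and time. Each group had 2 libraries, T32 and T53, numbers whose meaning is not stated. Separate animals are not named either, so each p-value reflects the spread among these 4 libraries, which may be technical. All numbers below compare Tfh with non-Tfh cells, and levels are counts scaled to library size (CPM) with TMM factors.

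Library totals ran from 5725358 to 13360563 counts, and the splicing genes took 0.979 to 1.12% of them. Cxcr5, one of the sorting genes, measured 747 and 712 CPM in Tfh and 52.6 and 56.0 CPM in non-Tfh libraries, as the gates imply. The 4 sorting genes were Cxcr5, Pdcd1, Cd44 and Thy1, with log2 fold changes from -1.33 to 3.75. Of them 2 were called higher in Tfh (4.47% of all genes tested) and 1 lower (4.02%). T cell markers summed to 3548 to 3902 CPM in the 4 libraries with none of 8 called. B cell markers summed to 5.53 and 6.64 CPM in Tfh and 2.16 and 5.06 CPM in non-Tfh libraries, with Pax5 the 1 of 8 that passed the filter and was called. Of 3 NK cell markers Klrb1c alone had enough counts and was called, at 44.6 and 57.3 CPM in Tfh and 19.7 and 12.4 CPM in non-Tfh libraries. Ncr1 and Klra8 were at 0 in all 4. Mitochondrially encoded genes summed to 17725 and 18177 CPM in Tfh and 15589 and 15224 CPM in non-Tfh libraries, with all 12 tested above 0, 9 of them fully separated and none called. No marker of CD8 T cells, plasma cells, macrophages and dendritic cells or stroma that was tested was called, and granulocyte and erythroid markers had none to test. The 15 G2/M genes, all with a fold change above 0, summed to 934 and 1210 CPM in Tfh and 1093 and 583 CPM in non-Tfh libraries, and 15 G1/S genes to 861 and 853 CPM against 1009 and 632 CPM, with none of the 30 called. What part cell cycle, mitochondrial RNA or other cells have in the values below was not tested.

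No member passed the test between Tfh and non-Tfh cells. Of the 65 members 63 passed the count filter, and none reached an adjusted p of 0.05 in edgeR's quasi-likelihood test, where 8.49% of all 11702 genes tested did. At an unadjusted p under 0.05 there were 2 members, Prpf18 and Srsf5, or 3.17%, beside 22.0% of all genes tested. DESeq2 (9.73% of all genes called) and limma-voom (7.28%) also called none of the 63, with 3 members at an unadjusted p under 0.05 in each. Of the 13 alternatives 2 did call members: Prpf18 without a count filter (11.0% of all genes called), and Prpf18 and Srsf5 with the library number as a replicate block (18.1%). Few of the changes called were small: the smallest change called was 1.39-fold, and 42 of the 994 called genes had changed by less than 1.5-fold, so a missed call does not show that a level was the same. Members are also well covered: their mean level had a median of 117 CPM over the 63 genes, against 26.4 CPM over all genes tested.

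The intervals say how large a change could be present. The 95% interval of the fold change lay wholly within 1.5-fold in either direction for 49 of 63 members (77.8%), beside 36.7% of all genes tested, and within 2-fold for 60 of 63 (95.2%, beside 67.2%). The 3 members whose interval reached past 2-fold were Prpf40b, Snrpd1 and Snrpd3, all of low level. The members were also measured more precisely: the median standard error was 0.137 on the log2 scale for the members and 0.179 for all genes tested. Log2 fold changes were between -0.2 and 0.2 for 50 of 63 members (79.4%, beside 46.1% of all genes tested) and ran from -0.58 for Snrpd3 to 0.64 for Prpf40b. Their median was -0.045, beside -0.0054 for all genes tested, and 45 of the 63 lay below 0 (71.4%, beside 50.7%).

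**Figure D1:**
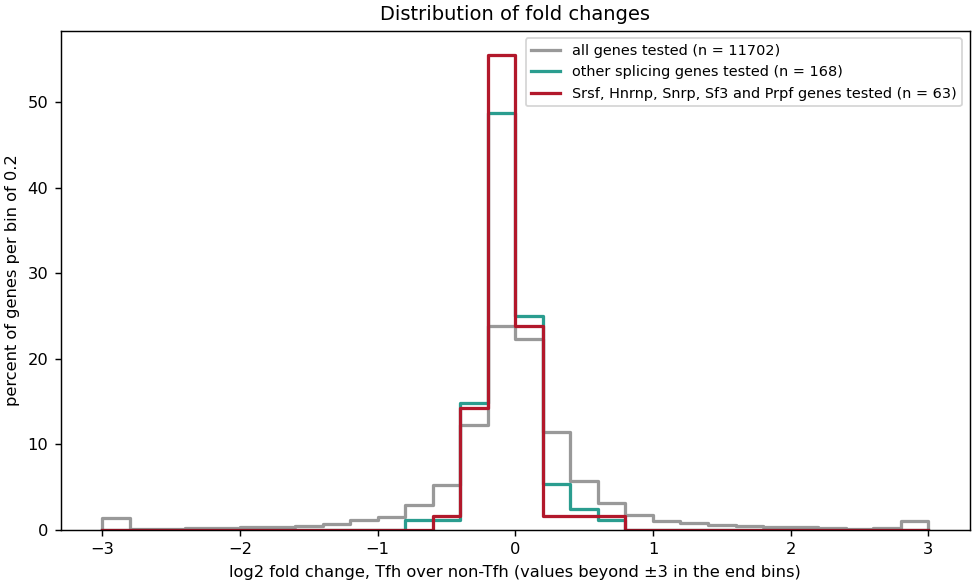
Distribution of log2 fold changes, Tfh over non-Tfh, in bins of 0.2 (x axis) as the percent of genes in each bin (y axis), for the 63 splicing genes tested, 168 other splicing genes and all 11702 genes tested. The splicing genes form a narrow peak around 0 with no member beyond 0.64 in either direction, while all genes have tails to both sides.

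Summed over the 65 members, the level was 10315 and 9788 CPM in the Tfh libraries and 11155 and 10202 CPM in the non-Tfh libraries. The ranges overlapped, and the means differed 1.06-fold (10052 CPM ± 373 against 10679 ± 674, mean ± SD, n = 2 per group). With 2 libraries against 2 an exact permutation test, two-sided, cannot give a p below 0.333, so no test of the sum is given. In bulk samples fewer cells of a type and less RNA per cell cannot be told apart, and scaling to the library total hides a change shared by all genes.

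**Figure D2:**
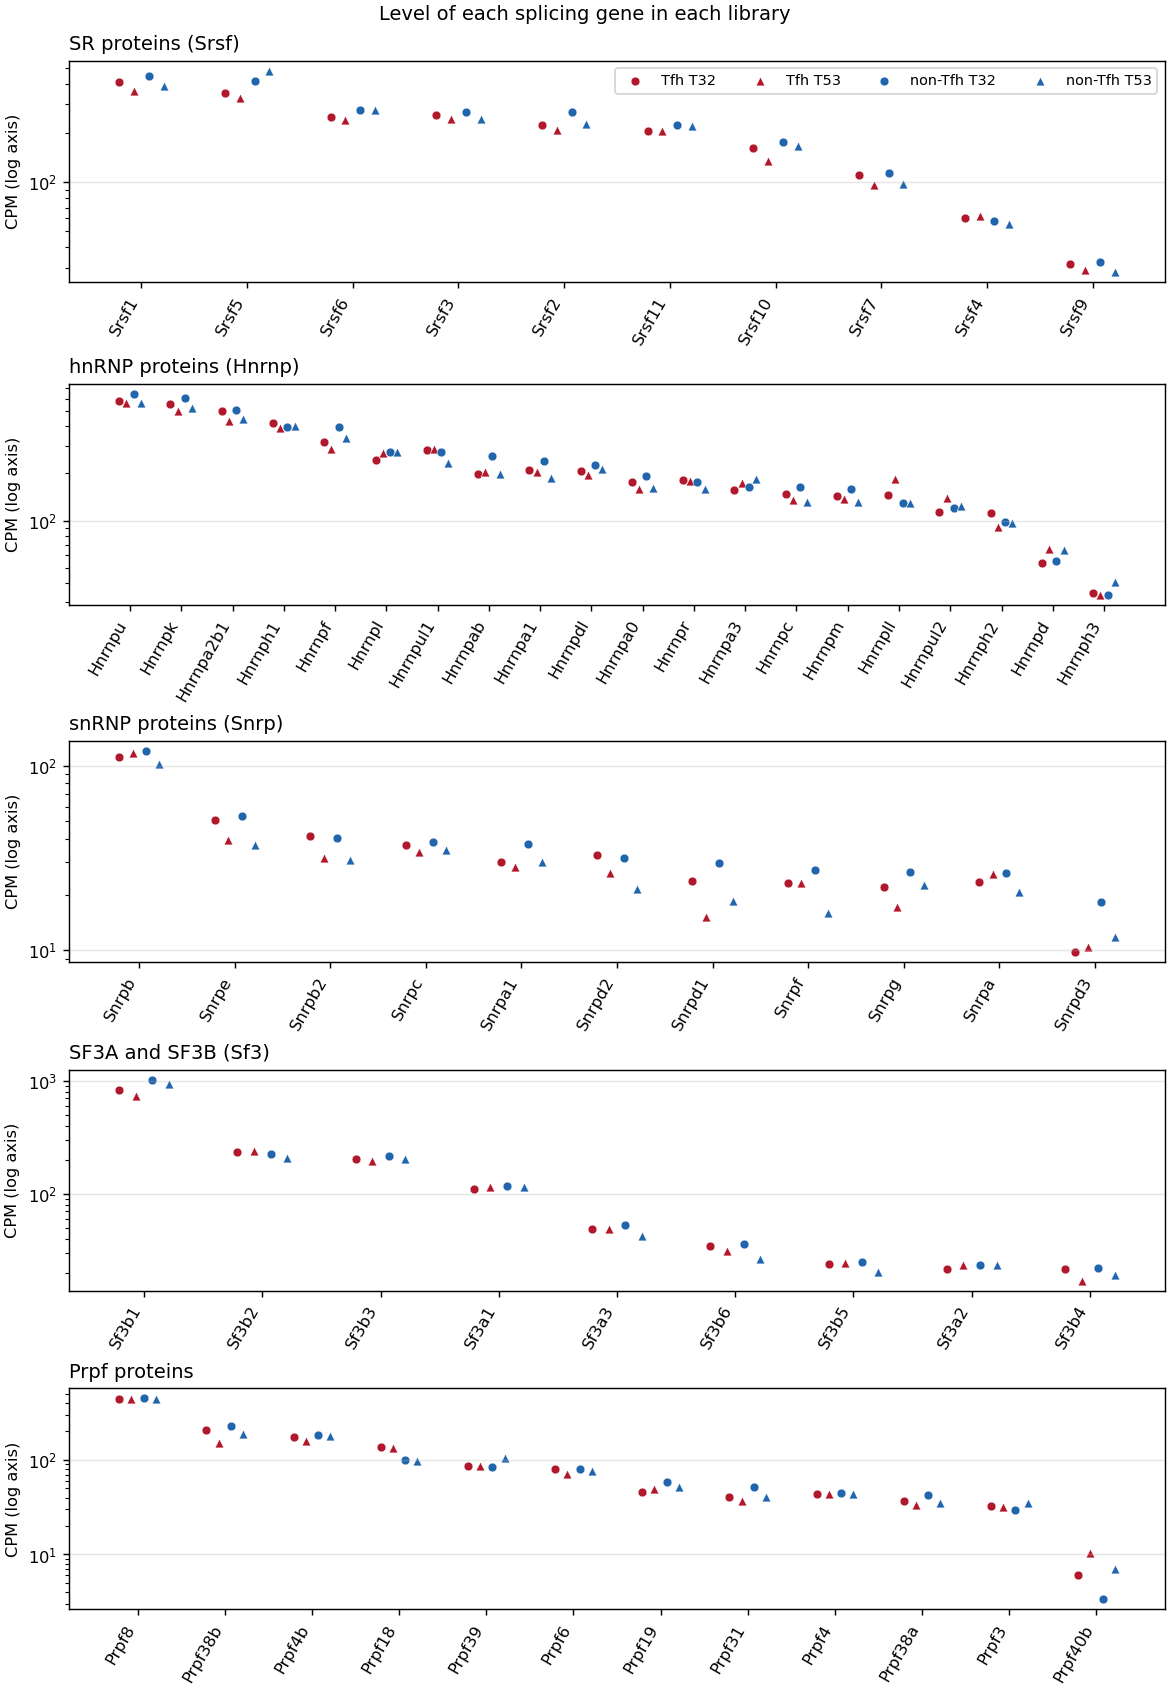
Level of 62 of the 63 splicing genes tested (CPM, log axis) in the 4 libraries, by family; colour marks the group and the symbol shape the library number. Sf3b1 is the highest at 741 to 1026 CPM, and in 42 of these 62 genes the libraries of both groups overlap.

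Both groups were fully separated, with each Tfh library above or below each non-Tfh library, in 20 of 63 members (31.7%), beside 52.2% of all genes tested. In 6 of them Tfh libraries were the higher (26.6% of all genes tested): Prpf18, Hnrnpll, Hnrnpul1, Hnrnpr, Sf3b2 and Srsf4. In 14 they were the lower (25.6% of all genes tested), among them Srsf2, Srsf5, Srsf6, Srsf10, Srsf11, Hnrnpf, Sf3b1, Snrpd3 and Snrpg.

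The promoters of these genes are rich in CpG and mostly lack the TATA box letters TATAAA, as do those of all genes tested. RefSeq windows (GRCm38.p6) of 300 bases, 250 before to 50 after a start, were matched for 56 of the 65 members and gave 73 windows. Their median CpG ratio, observed over expected, was 0.921, beside 0.769 for genes tested and 0.384 for all promoters in the table. The ETS core CCGGAAGT was found on either strand in 17.8% of the members' windows, 8.89% of those of genes tested and 3.89% of all. For CACGTG (E-box) these shares were 15.1, 10.3 and 7.15%, for CCAAT 47.9, 38.4 and 37.4%, for GGGCGG (GC box) 67.1, 63.2 and 35.7%, for TATAAA 8.22, 6.62 and 13.6%, for TTTCGCGC (E2F) 2.74, 0.648 and 0.323%, and for AAGATGGCG (YY1) 2.74, 3.31 and 1.40%. These are shares of windows and not of genes, so a site in overlapping windows of a gene, as CCGGAAGT in Sf3b2 and Srsf4, counts more than once. The members' shares for E2F and YY1 rest on 2 windows each. A match is a description of the letters and not a bound site.

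A set of 3 windows is given as examples and does not show the range among members. Srsf5 had the largest difference of any SR gene, Sf3b1 is the most abundant member, and Prpf8 was almost level in all libraries. The 250 bases before the start are given 5′ to 3′ on the gene's strand, for Srsf5 at chr12:80945249-80945498 (plus strand), for Sf3b1 at chr1:55027479-55027728 (minus strand) and for Prpf8 at chr11:75486527-75486776 (plus strand). Capitals mark matches on either strand to any of these motifs, and adjoining capitals in Srsf5 are a GC box overlapping an ETS core.
Srsf5: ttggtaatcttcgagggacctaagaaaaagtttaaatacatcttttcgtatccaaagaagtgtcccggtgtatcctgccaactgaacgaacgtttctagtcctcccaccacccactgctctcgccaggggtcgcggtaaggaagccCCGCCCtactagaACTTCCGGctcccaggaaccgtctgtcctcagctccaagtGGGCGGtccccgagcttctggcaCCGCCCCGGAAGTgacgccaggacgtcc
Sf3b1: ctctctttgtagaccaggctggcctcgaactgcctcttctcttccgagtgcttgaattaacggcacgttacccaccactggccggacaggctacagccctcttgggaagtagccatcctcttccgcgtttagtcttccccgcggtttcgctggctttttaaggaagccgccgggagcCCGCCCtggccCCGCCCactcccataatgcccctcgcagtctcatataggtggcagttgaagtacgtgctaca
Prpf8: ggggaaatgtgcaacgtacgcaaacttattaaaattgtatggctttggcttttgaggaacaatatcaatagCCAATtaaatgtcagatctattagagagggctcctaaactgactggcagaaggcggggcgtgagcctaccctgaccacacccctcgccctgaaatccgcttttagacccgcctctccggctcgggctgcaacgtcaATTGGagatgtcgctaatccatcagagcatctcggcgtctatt
The windows of Srsf5 and Sf3b1 hold GC boxes, with ETS cores in Srsf5 alone, and that of Prpf8 holds CCAAT boxes only.

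SR proteins lay slightly below 0 as a family. Of 10 Srsf genes tested, 9 had a log2 fold change under 0 and 1 above, with a median of -0.11, and none was called. Srsf5 (ENSMUSG00000021134, GRCm38 chromosome 12, 80945504 to 80950507), an SR protein with paired RNA recognition motifs, measured 354 and 328 CPM in the Tfh libraries T32 and T53 and 419 and 480 CPM in the non-Tfh libraries. Both Tfh libraries were below both non-Tfh libraries, and the 2 non-Tfh libraries differed from each other about as much as the groups did at T32. The log2 fold change was -0.40 (95% interval -0.72 to -0.076, unadjusted p = 0.0227, adjusted p = 0.138), a 1.32-fold higher mean level in non-Tfh cells. Within T32 the log2 ratio was -0.24 and within T53 -0.55. With the replicate block Srsf5 passed (adjusted p = 0.0422). Over 51.7% of its longest coding transcript Srsf5 is nearly identical to a pseudogene, Gm12966, which itself had 0 to 2 counts in a library, and how reads matching both were treated is not given in the sources used here.

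Srsf2 (SC35), which binds exonic enhancers and marks nuclear speckles, measured 226 and 209 CPM in Tfh and 268 and 229 CPM in non-Tfh libraries. The groups did not overlap, but Tfh T32 and non-Tfh T53 differed little (log2 fold change -0.19, interval -0.51 to 0.12, adjusted p = 0.476). Exons of Srsf2 overlap those of Mfsd11 and Mettl23 on the other strand, and whether reads were counted by strand is not known from the sources used here. Srsf1, the founding SR protein, measured 414 and 361 CPM in Tfh and 451 and 387 CPM in non-Tfh libraries, and here the groups interleaved (log2 fold change -0.11). Srsf3, the smallest SR protein and a factor in mRNA export, was level at 257 and 243 against 270 and 246 CPM. The 1 SR gene above 0 was Srsf4, at 60.7 and 61.8 against 57.5 and 55.8 CPM (log2 fold change 0.11, interval -0.16 to 0.39), and 68.0% of its longest coding transcript lies opposite the antisense gene Gm12992. Per kilobase of exon Srsf5 and Srsf2 were the most abundant of the family, at a mean of 99.1 and 78.8 CPM per kb. Srsf12 had 5 and 3 counts in Tfh and 8 and 8 in non-Tfh libraries and did not pass the filter.

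**Figure D3:**
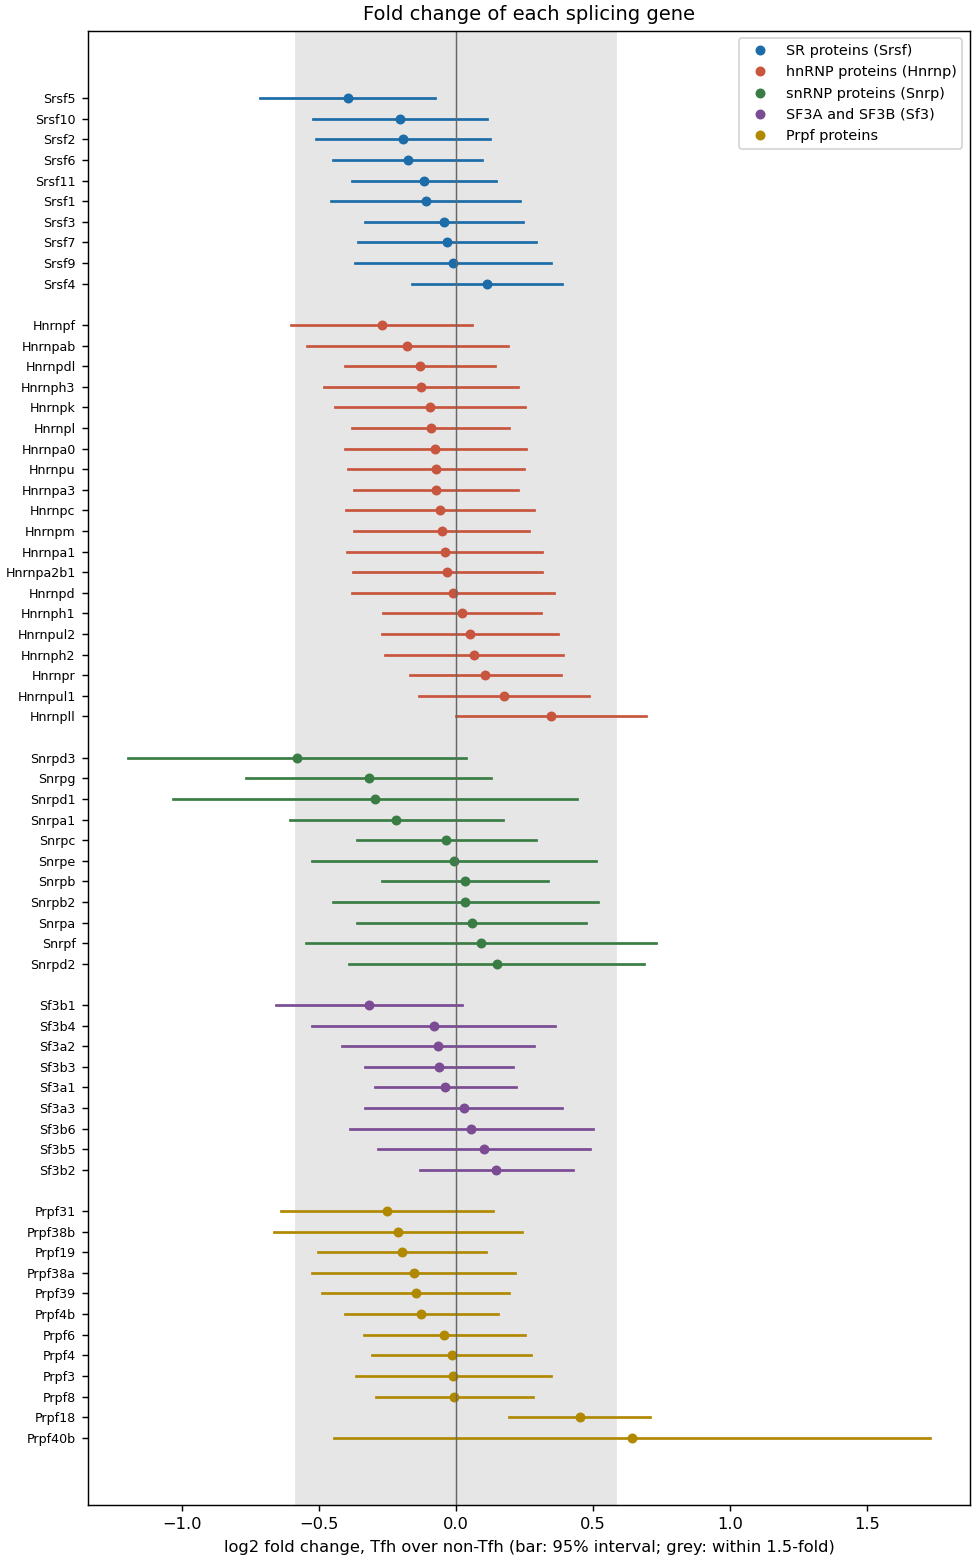
Log2 fold change, Tfh over non-Tfh, of 62 of the 63 splicing genes tested (points) with its 95% interval (bars), by family; the grey band marks changes within 1.5-fold. For 48 of these genes the whole bar lies in the band, Prpf18 and Srsf5 are the 2 whose bars do not cross 0, and Prpf40b, Snrpd1 and Snrpf have the widest bars.

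All 20 hnRNP genes were tested, 14 below and 6 above 0, with a median log2 fold change of -0.055 and 18 of the 20 within 0.2 of 0. Their intervals lay within 2-fold in all 20 and within 1.5-fold in 18, the exceptions being Hnrnpf and Hnrnpll. Hnrnpll (ENSMUSG00000024095, chromosome 17, 80029487 to 80062334), the regulator of CD45 splicing, measured 145 and 184 CPM in Tfh and 129 and 129 CPM in non-Tfh libraries. Both Tfh libraries were above both non-Tfh libraries, with Tfh T53 standing highest. The log2 fold change was 0.35 (interval -0.0013 to 0.70, unadjusted p = 0.0506, adjusted p = 0.229). It was 0.18 without Tfh T53 and 0.52 without Tfh T32. Counts per gene do not show which CD45 isoform was made.

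Hnrnpf, which binds G-rich sequence (ENSMUSG00000042079, chromosome 6, 117900324 to 117925622), had the lowest fold change of the family, at 319 and 286 CPM in Tfh and 394 and 337 CPM in non-Tfh libraries. The groups did not overlap (log2 fold change -0.27, interval -0.60 to 0.059, adjusted p = 0.32), and 74.4% of its longest coding transcript has near-identical copies in other genes. Hnrnpk, a poly(C)-binding protein, measured 558 and 498 against 608 and 520 CPM, with Tfh T32 above non-Tfh T53 (log2 fold change -0.095). Per kilobase Hnrnpf and Hnrnpk led the family, at a mean of 110 and 84.5 CPM per kb. Hnrnpa1, the textbook antagonist of Srsf1, measured 209 and 205 CPM in Tfh and 239 and 187 CPM in non-Tfh libraries, so that both Tfh values fell between the non-Tfh values. Hnrnpl, the paralogue of Hnrnpll, measured 244 and 271 against 275 and 274 CPM.

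The snRNP protein genes had lower levels and wider intervals. Of 12 members 11 were tested, 6 below and 5 above 0, with a median log2 fold change of -0.0085. Their median standard error was 0.20, and 5 of 11 intervals lay within 1.5-fold. The Sm proteins form a ring of B, D1, D2, D3, E, F and G around the snRNA of most spliceosomal snRNPs, and the 7 ring genes had fold changes on both sides of 0, from -0.58 to 0.15. Snrpd3, which encodes SmD3 (ENSMUSG00000020180, chromosome 10, 75517551 to 75537381), measured 9.80 and 10.5 CPM in Tfh and 18.2 and 11.8 CPM in non-Tfh libraries. The groups did not overlap, but the separation rests on non-Tfh T32: within T53 the log2 ratio was -0.16, and within T32 -0.86. The fitted log2 fold change was -0.58 (interval -1.20 to 0.035, unadjusted p = 0.0606, adjusted p = 0.253), and -0.22 without non-Tfh T32.

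At the other end, Snrpd2 measured 32.8 and 26.2 CPM in Tfh and 31.7 and 21.6 CPM in non-Tfh libraries (log2 fold change 0.15, interval -0.39 to 0.69). In both groups T32 was the higher library. Snrpe did the same, at 50.5 and 39.5 CPM against 53.4 and 37.3 CPM, with a log2 fold change of -0.0085 between groups and of 0.35 and 0.51 between T32 and T53 within Tfh and within non-Tfh cells. Snrpb, which encodes SmB, was steadier at 111 and 117 against 120 and 102 CPM (log2 fold change 0.032). Among the proteins particular to U1 and U2, Snrpa, the A protein of U1, measured 23.5 and 25.9 CPM in Tfh and 26.3 and 20.8 CPM in non-Tfh libraries, with overlapping groups. Snrpert, annotated as a pseudogene of 279 bases whose sequence is nearly identical to part of Snrpe, had 2 and 1 counts in Tfh and none in non-Tfh libraries and was not tested.

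Within a complex the mRNAs were far from equal per kilobase of exon, in the same order in both cell types at the extremes. In the Sm ring Snrpb was the highest at 56.1 and 59.1 CPM per kb in Tfh and 60.8 and 51.8 CPM per kb in non-Tfh libraries, and Snrpd3 the lowest at 2.85 and 3.04 against 5.30 and 3.43 CPM per kb. In the SF3 complexes Sf3b1 was the highest at 72.7 and 65.2 against 90.2 and 81.7 CPM per kb, and Sf3b5, a small subunit of the same complex, the lowest at 6.28 and 6.41 against 6.46 and 5.33 CPM per kb. Exon length here is the union of all annotated exons, which for short genes includes long alternative ends, so these levels depend on the annotation.

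**Figure D4:**
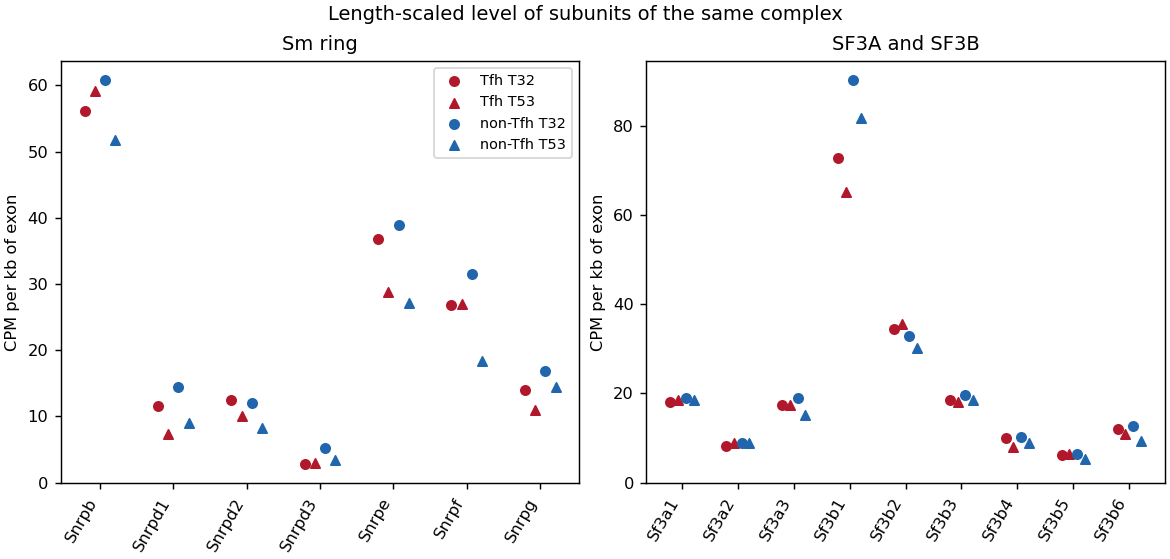
Level per kilobase of exon (CPM per kb) of the 7 Sm ring genes (left) and the 9 SF3A and SF3B genes (right) in each library; colour marks the group and shape the library number. Subunits of the same complex differ from each other far more than Tfh differs from non-Tfh, with Snrpb at 51.8 to 60.8 and Snrpd3 at 2.85 to 5.30 CPM per kb.

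SF3A and SF3B recognise the branch point as parts of the U2 snRNP. All 9 genes were tested, 5 below and 4 above 0, with a median log2 fold change of -0.040, and 8 of 9 intervals lay within 1.5-fold. The exception was Sf3b1 (ENSMUSG00000025982, chromosome 1, 54985169 to 55027481), whose product clamps the branch point helix. It measured 827 and 741 CPM in Tfh and 1026 and 929 CPM in non-Tfh libraries. Both Tfh libraries were the lower, by nearly the same ratio within T32 (-0.31 on the log2 scale) and within T53 (-0.33). The log2 fold change was -0.32 (interval -0.66 to 0.023, unadjusted p = 0.0631, adjusted p = 0.259). Sf3b2, its partner in branch point contact, lay on the other side at 235 and 242 CPM in Tfh and 225 and 206 CPM in non-Tfh libraries (log2 fold change 0.15, interval -0.13 to 0.43). Without Sf3b1, the summed level of the other 64 members was 9489 and 9047 CPM in Tfh and 10129 and 9273 CPM in non-Tfh libraries, again with overlapping groups.

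The Prpf genes act at several steps, and they held both the flattest and the most separated members. Of 13 genes tested 11 lay below 0 and 2 above, with a median log2 fold change of -0.042. Prpf8, the large scaffold at the catalytic centre (ENSMUSG00000020850, chromosome 11, 75486816 to 75509449), measured 436, 443, 446 and 436 CPM in Tfh T32, Tfh T53, non-Tfh T32 and non-Tfh T53. These 4 values are nearly the same, and the log2 fold change was -0.0059 (interval -0.29 to 0.28).

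Prpf18, which acts in the second catalytic step (ENSMUSG00000039449, chromosome 2, 4622058 to 4652113), came nearest to the threshold of all members. It measured 137 and 133 CPM in Tfh and 99.96 and 97.6 CPM in non-Tfh libraries. The 2 libraries of each group were close to each other and the groups were well apart (135 CPM ± 3.29 against 98.8 ± 1.69, mean ± SD, n = 2 per group). The log2 fold change was 0.45 ± 0.107 (SE), a 1.37-fold higher mean level in Tfh cells with an interval from 0.19 to 0.71 (unadjusted p = 0.00479, adjusted p = 0.0534). Within T32 the log2 ratio was 0.46 and within T53 0.44. Without the count filter, where 17991 genes were tested (5.59% higher and 5.45% called lower), Prpf18 was the 1 member that passed (adjusted p = 0.0212). With the library number as a replicate block, where 9.14% of genes were called higher and 8.98% lower, it passed too (adjusted p = 0.0111). With a library left out, where 6.03% (Tfh T32), 4.44% (Tfh T53), 7.19% (non-Tfh T32) and 7.24% (non-Tfh T53) of genes were called, no member passed, and the adjusted p of Prpf18 was 0.109 to 0.233. No part of its longest coding transcript had a near-identical copy elsewhere.

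Prpf40b, a U1-associated factor, had the highest fold change of all members and the least data, at 6.03 and 10.3 CPM in Tfh and 3.35 and 7.08 CPM in non-Tfh libraries. The groups overlapped, T53 being above T32 in both (log2 fold change 0.64, interval -0.45 to 1.73, adjusted p = 0.489). Leaving out a library moved it from 0.17 without non-Tfh T32, or 0.25 without Tfh T53, to 1.01 without Tfh T32 and 1.25 without non-Tfh T53. Prpf31, a tri-snRNP protein, had the lowest fold change of the family at 40.97 and 36.5 against 51.6 and 40.8 CPM (log2 fold change -0.25, interval -0.64 to 0.13). Prpf38b measured 208 and 150 CPM in Tfh and 227 and 189 CPM in non-Tfh libraries, with T32 the higher in both groups (log2 fold change -0.21). Prpf19, the ubiquitin ligase of the Prp19 complex, measured 46.2 and 49.8 against 57.9 and 51.9 CPM (log2 fold change -0.20, adjusted p = 0.446).

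Many of these genes differed between the library numbers as much as between the cell types. In 40 of 63 members (63.5%) the difference between T32 and T53, averaged over both cell types, was larger than the difference between Tfh and non-Tfh, beside 40.3% of all genes tested. T32 was above T53 in both groups for 36 members (57.1%, beside 31.9% of all genes tested), and T53 above T32 in both for 5 (7.94%, beside 31.1%), which were Hnrnpa3, Hnrnpd, Hnrnpll, Hnrnpul2 and Prpf40b. By median the shift was largest for the Sm ring, with a log2 ratio of T32 over T53 of 0.32 in Tfh and 0.54 in non-Tfh cells over 7 genes. The medians for all genes tested were 0.0027 and 0.0019. Of the 7 ring genes 4 were higher in T32 in both groups (57.1%, the same share as of all members) and 0 were higher in T53 in both. Snrpd1 showed the shift most: 23.7 and 15.2 CPM in Tfh T32 and T53, and 29.8 and 18.4 CPM in the non-Tfh pair. T32 was the deeper library in both groups. Among 7 nuclear retained and structural RNAs the median log2 ratio of T32 over T53 was 0.91 in Tfh and 0.92 in non-Tfh cells. Of these 7, however, 4 were higher in T32 in both groups and 1 was higher in T53 in both. Their sum was 38793 and 32037 CPM in Tfh T32 and T53, and 32933 and 31323 CPM in non-Tfh T32 and T53. The part of depth or RNA composition in the shift was not tested.

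**Figure D5:**
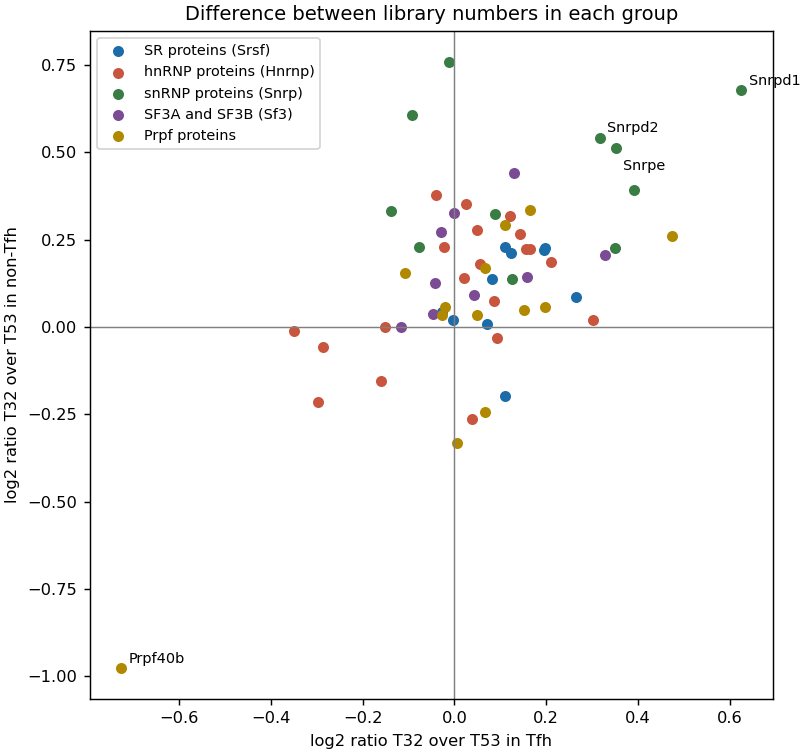
Log2 ratio of library T32 over T53 in Tfh cells (x axis) and in non-Tfh cells (y axis) for the 63 splicing genes tested, coloured by family; ratios are of CPM + 0.5. Of the 63 points 36 lie in the upper right, where T32 is the higher in both groups, with Snrpd1, Snrpd2 and Snrpe among the farthest, and Prpf40b lies farthest to the lower left.

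In the rest of the splicing machinery calls were rare. Another 12 lists of spliceosome and splicing regulator genes held 170 genes that were matched and are not members, of which 168 were tested, 1 rose (4.47% of all genes tested did) and 1 fell (4.02% of all genes tested). The gene that rose was Mbnl2, a muscleblind splicing regulator, at 166 and 155 CPM in Tfh and 97.7 and 99.1 CPM in non-Tfh libraries. It rose 1.63-fold (log2 fold change 0.71 ± 0.109, adjusted p = 0.0146), and without Tfh T32 the call was lost (adjusted p = 0.0675). The gene that fell was Srpk1, a kinase that phosphorylates SR proteins, at 235 and 217 CPM in Tfh and 372 and 346 CPM in non-Tfh libraries. It fell 1.59-fold (log2 fold change -0.67 ± 0.122, adjusted p = 0.0241), and its call was lost when non-Tfh T32 (adjusted p = 0.0654) or either Tfh library, T32 (0.0729) or T53 (0.147), was left out.

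By list, the medians of the log2 fold changes ran from -0.18 for the 9 SR protein kinases and import factors to 0.065 for the 10 LSm ring genes, with none called in 10 of the 12 lists. They were -0.11 for 15 U2AF and branch point genes, -0.16 for 8 U1 accessory genes, -0.019 for 13 U5 and tri-snRNP genes, 0.011 for 19 genes of the Prp19 complex and catalytic activation, -0.088 for 11 helicases and second-step factors and -0.069 for 9 minor spliceosome genes. For 17 SR-related proteins the median was -0.070, for 31 alternative splicing regulators -0.015, for 17 snRNP assembly factors -0.079 and for 9 exon junction genes -0.055. Of the 168 genes 11 had an unadjusted p under 0.05 (6.55%, beside 22.0% of all genes tested).

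The annotation of the members differed by family. In the GENCODE M21 annotation 9 of 10 tested Srsf genes had at least 1 transcript annotated for nonsense-mediated decay, the fate of the poison exon forms by which SR genes limit their own expression. That compares with 10 of 20 Hnrnp, 7 of 13 Prpf, 4 of 11 Snrp and 1 of 9 Sf3 genes, and with 30.5% of all protein-coding genes tested. A count per gene sums productive and decaying forms, so a level such as that of Srsf5 cannot be split between them. Of the 63 members 15 (23.8%) shared a head-to-head start within 1000 bases with a protein-coding gene on the other strand, beside 11.4% of protein-coding genes tested, among them Hnrnpa2b1 with Cbx3, Hnrnpa1 with Cbx5 and Prpf31 with Tfpt. None of the 13 partners that were tested was called, where 8.49% of all genes tested were, and 13 genes are too few to compare with that share. Stretches of at least 75 bases and 98% identity in other genes covered 20% or more of the longest coding transcript in 16 of 64 members searched, through pseudogenes or overlapping neighbours. Whether such copies affected the levels of those members was not tested.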

How the data were processed

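Stranded total RNA libraries (TruSeq, read pairs) were sequenced from 4 samples, 2 Tfh and 2 non-Tfh. Values deposited by the authors are unnormalised read counts for each Ensembl identifier. TopHat2, Bowtie2, HTSeq and the build GRCm38 (mm10) are listed in the submitters' processing notes. Tool versions, annotation release and strand setting are not given in the sources used here. Symbols, positions and exon lengths came from GENCODE M21 (GRCm38), which matched 37607 of 39179 identifiers.

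The comparison used R 4.3.3 with edgeR 4.0.16: filterByExpr (11702 genes kept), TMM scaling on the full library totals, and a robust quasi-likelihood fit with group as the sole term (residual degrees of freedom: 2), two-sided, Benjamini-Hochberg over all genes tested at 0.05. The SE was derived from the F statistic as |log2 fold change|/√F, and 95% intervals use it with the fit's moderated degrees of freedom. Ratios between single libraries use log2 of CPM + 0.5. Near-identical copies were searched with BLAST 2.17.0. The code was tested on simulated counts.

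Members and gene lists were chosen with earlier results of these data known. Values are given for members with an unadjusted p under 0.05, the 2 most abundant per kb and the highest and lowest fold change of each family, and for called genes of the other lists; Srsf1, Srsf3, Hnrnpa1, Hnrnpl, Snrpa, Snrpd1 and Prpf19 were named after their values were seen. The fit was repeated with DESeq2 1.42.0, with limma-voom (limma 3.58.1), with RLE or upper-quartile factors, without a count filter, with a minimum of 5 CPM in 2 libraries, without robust dispersions, with a replicate block, after removing mitochondrial genes and the top 10 by abundance, and leaving out each library in turn. Figures used matplotlib 3.10.9. Of the members 1, counted in all totals, is not reported here by name.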

Additional observations from a re-analysis of the deposited data

How the results depend on the processing

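No member was called in 11 of 13 alternatives. Without a count filter 1 was called higher and none lower (5.59 and 5.45% of 17991 genes were called in these directions), and of the other splicing genes 2 were called higher and 2 lower. With a replicate block for the library number 1 was called higher and 1 lower, Prpf18 (adjusted p = 0.0111) and Srsf5 (0.0422), where 9.14 and 8.98% of all genes were called, and of the other splicing genes 2 were called higher and 5 lower. The deviations of libraries of the same number from their group means correlated at 0.368 over 11702 genes, but the labels do not say that the numbers pair samples, so the block is only an alternative. With each library left out no member was called, and the other splicing genes had 0 to 3 called higher and 0 to 2 lower. The members' median log2 fold change ran from -0.125 to 0.024 with a library left out. It was above 0 only without non-Tfh T32.

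The sign of a member's fold change near 0 is not stable: with a library left out 56 member values changed sign over the 4 fits, and 4 did so over the other 9 settings. Leaving out libraries, the log2 fold change ran from -0.203 to 0.024 for Hnrnpk, from -0.469 to 0.017 for Prpf38b, from -0.023 to 0.014 for Prpf8, from -0.078 to 0.155 for Snrpb, from -0.091 to 0.462 for Snrpd2 and from -0.237 to 0.282 for Snrpe. Prpf8 had 0.00048 with at least 5 CPM in 2 libraries and Snrpe 0.012 with limma-voom. Of members that kept their sign, leaving out a library moved the log2 fold change by over 1.5 times in Prpf40b (0.167 to 1.245), Hnrnpll (0.179 to 0.518), Snrpd3 (-0.852 to -0.221), Hnrnpf (-0.380 to -0.152), Prpf31 (-0.409 to -0.067), Srsf2 (-0.303 to -0.070) and Sf3b2 (0.085 to 0.214). The cause of these changes was not tested. With 2 libraries per group and the depth given above, small changes are at the limit of what could be called.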
